A study of Mus musculus with 2 samples.

Results

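Smooth muscle contractile genes were followed in mouse lung as 10 named members: Acta2, Actg2, Myh11, Mylk, Tagln, Cnn1, Smtn, Lmod1, Synpo2 and Des. They were chosen by symbol, matched through GENCODE release M21 to the Ensembl identifiers of the count files, and all 10 were found among the 37315 identifiers listed there. Lung messenger RNA of the C57BL/6 strain was sequenced as a single control library and a single library after exposure to PM2.5, the fine fraction of airborne particulate matter. Both sample titles carry the number 12 followed by W, and the labels give neither the dose, the route and duration of exposure, the sex and age of the mice nor how many animals each library holds.

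Smooth muscle in the lung surrounds airways, arteries and veins, and its tone sets their calibre. Calcium entering the cell leads to activation of myosin light chain kinase, and phosphorylated myosin then pulls on filaments of smooth muscle actin. Myosin phosphatase reverses the step, and nitric oxide relaxes the cell through cyclic GMP. Many of the contractile genes are switched on together by serum response factor with its partner myocardin, at a DNA element called the CArG box. Not all are restricted to smooth muscle: Acta2 also marks myofibroblasts, Mylk is expressed in endothelium, and Des in pericytes and striated muscle.

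The libraries held 62788045 counts (control) and 57435027 counts (PM2.5), and lung epithelial markers were abundant in both, with summed levels of 39322 and 52520 CPM over 5 genes. CPM is the count divided by the library size in megacounts, with that size scaled by TMM, a method that centres most genes on no difference. Because there was 1 library per group, no difference could be set against the variation between animals. Each ratio of CPM, PM2.5 over control, carries an exact 95% interval (Clopper-Pearson) that covers counting error only, and it describes these libraries rather than the conditions. A gene was called higher or lower where the ratio was at least 1.5-fold and the interval excluded equality. All 10 members had a mean of at least 1 CPM, as did 14518 genes in all, which are the measured genes below.

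The contractile genes did not move as a block. Cnn1, Tagln and Acta2 were higher in the PM2.5 library, by 2.42-fold, 2.02-fold and 1.60-fold, whereas the genes for the myosin heavy chain and its kinase, Myh11 and Mylk, had ratios of 0.712 and 0.780. Thus 3 of 10 members were called higher, 0 were called lower and 7 met neither size. Among all measured genes, 14.9% were called higher and 19.1% lower by the same rule. At 2-fold, 2 members were called higher against 7.25% of all genes, and 0 lower against 6.04%. With the whole interval required to lie beyond 1.5-fold, the members' counts were again 3 and 0, beside 10.2% and 14.4% of all genes. The median log2 ratio of the members was -0.0023, beside -0.09 over all measured genes, with 5 members above and 5 below a log2 ratio of 0. In whole lung, fewer cells of a type and less RNA per cell cannot be told apart.

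**Figure D1:**
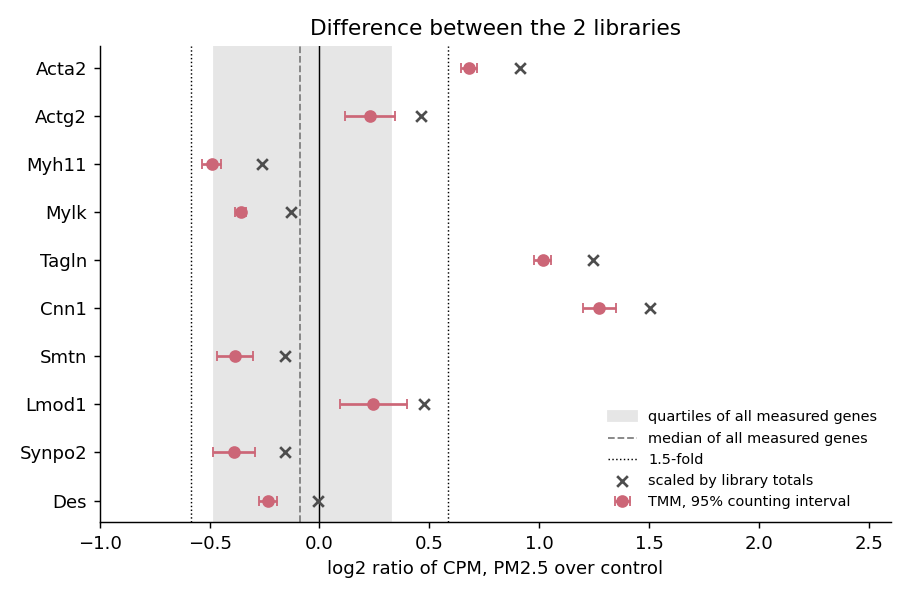
Log2 ratio of CPM (horizontal axis, PM2.5 over control) for each of the 10 contractile genes, with circles and bars for the TMM-scaled ratio and its 95% counting interval and crosses for scaling by library totals. The grey band spans the quartiles of all measured genes (-0.48 to 0.33), and only Cnn1, Tagln and Acta2 lie beyond the dotted line at 1.5-fold.

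Acta2 encodes smooth muscle alpha-actin, the main thin filament protein of vascular smooth muscle (ENSMUSG00000035783, GRCm38 chromosome 19, 34241090 to 34255590, minus strand). The gene took 10562 control counts and 18175 PM2.5 counts, or 182 and 292 CPM. The ratio was 1.60 (95% counting interval 1.57 to 1.64). Actg2 encodes the gamma-actin typical of visceral smooth muscle (ENSMUSG00000059430, chromosome 6, 83512905 to 83536265, minus strand). Counts of 1154 and 1453, 19.9 and 23.4 CPM, made the ratio 1.17 (1.09 to 1.27), short of the size that was called. Acta2 therefore stood further from equality than Actg2, and the count of Acta2 relative to Actg2 was 1.37 times as high in the PM2.5 library (1.26 to 1.48), a comparison that needs no scaling.

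Actins are so alike that reads could in principle be assigned to the wrong gene. The first 60 coding bases are shown because actin proteins are known to differ near their amino end. They come from GENCODE M21 transcripts and are printed 5′ to 3′, with capitals for bases that differ from Acta2 where the coding sequences are aligned. Gaps in the alignment are not printed, so the lines fall out of step with Acta2 after a gap. The coding sequences have 1134 bases in Acta2, 1131 in Actg2 and 1128 in Actb.
Acta2: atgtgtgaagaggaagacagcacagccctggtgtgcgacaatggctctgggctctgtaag
Actg2: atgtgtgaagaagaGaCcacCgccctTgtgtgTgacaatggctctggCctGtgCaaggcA
Actb: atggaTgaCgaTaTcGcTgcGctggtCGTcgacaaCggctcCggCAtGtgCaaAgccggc
Over the whole coding sequence, Acta2 was identical to Actg2 at 84.4% of aligned bases and to the cytoplasmic actin Actb at 83.2%. In the transcript with the longest coding sequence of Acta2 or Actg2, no stretch of 125 bases, the read length, occurred in a transcript of another gene. Of 1986 stretches of 50 bases in Acta2, 7 did. For the other 8 members, too, 0 stretches of 125 bases were shared.

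Myh11 encodes the smooth muscle myosin heavy chain, the motor of the thick filament and a gene with little expression outside smooth muscle (ENSMUSG00000018830, chromosome 16, 14194535 to 14291372, minus strand). Its 9722 control counts and 7426 PM2.5 counts correspond to 168 and 119 CPM. The ratio of 0.712 (0.691 to 0.734) was the lowest of the 10 members but did not reach the size that was called. Mylk encodes myosin light chain kinase, whose phosphorylation of the regulatory light chain starts contraction (ENSMUSG00000022836, chromosome 16, 34745210 to 35002420, plus strand). Its 23796 and 19904 counts, or 410 and 320 CPM, gave a ratio of 0.780 (0.765 to 0.794). Neither the motor nor its kinase was called. The log2 ratio of Mylk, -0.36, went to -0.0032 without the trend with exon length, and to 0.08 with the longest transcript as the length. The gene counts pool the long kinase of endothelium, the short kinase of smooth muscle and telokin, all made from Mylk.

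Tagln encodes transgelin, also called SM22-alpha, an actin-bundling protein (ENSMUSG00000032085, chromosome 9, 45929619 to 45936058, minus strand). Counts of 7964 (control) and 17285 (PM2.5), 137 and 278 CPM, gave a ratio of 2.02 (1.97 to 2.08). Cnn1 encodes calponin 1, which binds actin and restrains the myosin ATPase (ENSMUSG00000001349, chromosome 9, 22099216 to 22109630, plus strand). With 2012 and 5218 counts, 34.7 and 83.9 CPM, it had the highest ratio of the 10 members, 2.42 (2.30 to 2.55). These related proteins share the calponin family fold, and both genes were higher than Acta2 in ratio: Tagln by 1.26 times (1.22 to 1.31) and Cnn1 by 1.51 times (1.42 to 1.60). In GENCODE M21 an antisense gene, Gm48529, overlaps 62.4% of the exon bases of Tagln, and the protein-coding gene Pcsk7 on the opposite strand overlaps 5.43%. Gm48529 was not analysed here. Whether strand was used in counting is not given in the sources used here, so that reads from the opposite strand cannot be told apart from those of Tagln. Pcsk7 itself had 2670 and 2491 counts.

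The other actin-binding members did not share that difference. Smtn encodes smoothelin, a protein of contractile, mature smooth muscle (ENSMUSG00000020439, chromosome 11, 3517523 to 3540612, minus strand). It had 2741 and 2252 counts, 47.3 and 36.2 CPM, and a ratio of 0.766 (0.724 to 0.810). The opposite-strand transcript Gm11946, which overlaps 16.3% of the exon bases of Smtn, had 1 and 33 counts. Synpo2, the gene of synaptopodin 2 or myopodin, an actin-bundling protein of muscle (ENSMUSG00000050315, chromosome 3, 123076519 to 123236149, minus strand), had 2040 and 1672 counts, 35.2 and 26.9 CPM. Its ratio was 0.764 (0.716 to 0.815), within counting error of that of Smtn. Lmod1 encodes leiomodin 1, which nucleates actin filaments in smooth muscle (ENSMUSG00000048096, chromosome 1, 135324807 to 135368065, plus strand). It was the member with fewest counts, 633 and 805, or 10.9 and 12.9 CPM, with a ratio of 1.19 (1.07 to 1.32). Des encodes desmin, the muscle intermediate filament that ties the contractile apparatus together (ENSMUSG00000026208, chromosome 1, 75360329 to 75368579, plus strand). It had 10004 and 9117 counts, 173 and 147 CPM, and a ratio of 0.849 (0.826 to 0.874). None of these 4 genes reached the size that was called.

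**Figure D2:**
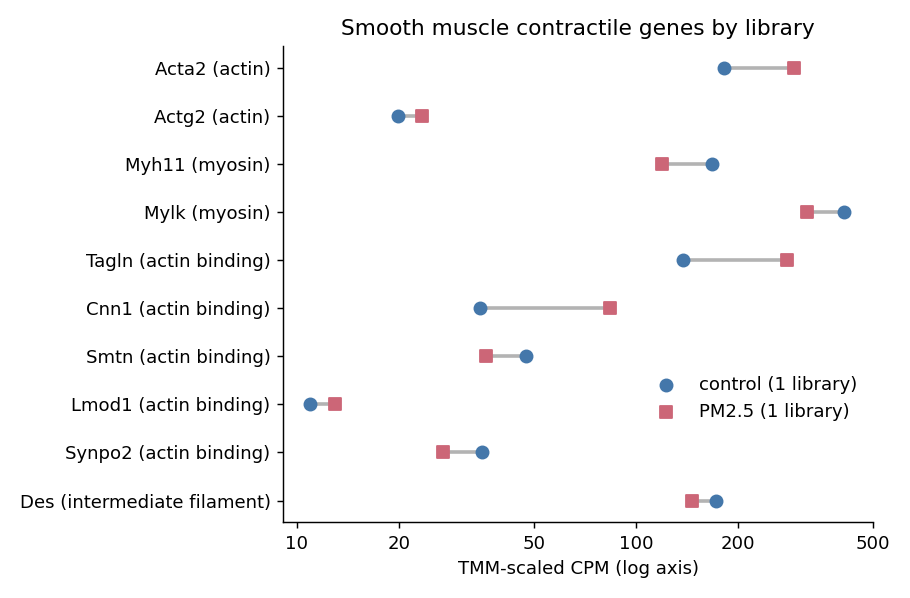
TMM-scaled CPM (horizontal log axis) of each contractile gene in the control library (circles) and the PM2.5 library (squares), 1 library each, joined by a line. Cnn1 and Tagln have the longest lines, from 34.7 to 83.9 CPM and from 137 to 278 CPM, and Myh11, Mylk, Smtn, Synpo2 and Des run to lower values.

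The promoter windows of the members were read for the CArG box because the contractile genes are known to share it. RefSeq windows on GRCm38.p6, 250 bases before to 50 after the annotated start, were at hand for 7 of the 10 members, and Tagln, Myh11 and Actg2 had none. The 3 windows below are those of the members called higher for which one was at hand and of Lmod1. They are printed 5′ to 3′ on the gene's own strand, with capitals for matches to the CArG box with at most 1 mismatch.
Acta2 (chr19:34255324-34255623, minus strand): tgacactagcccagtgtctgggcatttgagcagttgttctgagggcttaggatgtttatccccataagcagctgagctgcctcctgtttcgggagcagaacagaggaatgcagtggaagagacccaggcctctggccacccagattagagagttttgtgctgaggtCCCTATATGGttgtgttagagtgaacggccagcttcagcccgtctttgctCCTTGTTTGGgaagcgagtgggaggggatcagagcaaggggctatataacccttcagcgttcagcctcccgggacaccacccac
Cnn1 (chr9:22099003-22099302, plus strand): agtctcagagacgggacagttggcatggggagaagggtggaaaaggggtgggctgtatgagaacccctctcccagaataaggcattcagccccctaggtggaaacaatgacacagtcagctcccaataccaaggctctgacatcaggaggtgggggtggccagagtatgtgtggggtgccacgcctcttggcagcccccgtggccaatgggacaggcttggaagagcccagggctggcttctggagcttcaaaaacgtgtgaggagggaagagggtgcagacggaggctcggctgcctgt
Lmod1 (chr1:135324563-135324862, plus strand): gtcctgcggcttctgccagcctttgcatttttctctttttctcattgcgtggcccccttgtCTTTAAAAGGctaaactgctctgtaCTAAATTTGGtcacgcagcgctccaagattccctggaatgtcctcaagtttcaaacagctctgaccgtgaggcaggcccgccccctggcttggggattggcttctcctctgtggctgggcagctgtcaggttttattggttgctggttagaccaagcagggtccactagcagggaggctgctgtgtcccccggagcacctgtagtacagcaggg
The Acta2 window held CCCTATATGG, whose first base lies at -84 from the annotated start, and CCTTGTTTGG at -34. The Lmod1 window held CTTTAAAAGG and CTAAATTTGG at -189 and -164 from its start. Each of these 4 matches had 1 mismatch, and no exact CArG box occurred in any of the 7 windows. The CArG box was sought as CC, then 6 letters that are each A or T, then GG. Over all 32851 windows of the same length, 1.63% held an exact match and 21.1% a match with at most 1 mismatch. The consensus reads the same on both strands. TATAAA, sought on both strands, was present in 1 of the 7 windows, that of Synpo2, and in 13.6% of all windows. In Synpo2 it lay on the strand opposite the gene, as TTTATA with its first base at -233. The search allowed no mismatch, so near forms such as tatataa in the Acta2 window were not counted. The windows of Cnn1, Des, Smtn, Synpo2 and Mylk held no CArG match at this stringency, so members with and without a match stood both among those called higher and among the rest. Each window covers a single annotated start. Those of Mylk and Smtn lie inside the gene coordinates given above. That of Acta2 lies mostly inside them, as the gene coordinates run to 34255590. The positions in the Acta2 window are therefore counted from the RefSeq start and not from the outermost start of the gene. Other starts of these 3 genes were not read.

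Added up, the 10 genes took 70628 counts in the control library (exact Poisson interval 70108 to 71151) and 83307 in the PM2.5 library (82742 to 83875). These are 0.112% and 0.145% of all counts, and the summed level went from 1218 to 1339 CPM, a ratio of 1.10 (1.09 to 1.11). That sum joined opposite differences: the actins together had a ratio of 1.56 and the 5 actin-binding genes 1.65, against 0.760 for Myh11 with Mylk. These sums follow their most abundant genes. Acta2 took 18175 of the 19628 PM2.5 counts of the actins. Tagln and Cnn1 took 17285 and 5218 of the 27232 PM2.5 counts of the actin-binding genes. Of the other actin-binding genes, Lmod1 had a ratio of 1.19, Smtn 0.766 and Synpo2 0.764. Without Mylk, the member with most counts, the sum had a ratio of 1.26 (1.25 to 1.28).

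Levels can be compared between genes only per length, so CPM was divided by the kilobases of the union of exons. In the control library Acta2 was first at 83.0 CPM per kb, followed by Tagln at 69.1, Des at 46.0, Mylk at 36.4 and Myh11 at 22.1. Actg2 and Cnn1 followed at 12.8 and 12.7, with counting intervals that overlapped, then Smtn at 10.8. Lmod1 and Synpo2, at 2.77 and 2.69 CPM per kb, were last and also overlapped. In the PM2.5 library Tagln was first at 139.8 CPM per kb and Acta2 second at 133. Cnn1 moved from rank 7 to rank 4, at 30.7 CPM per kb, behind Des at 39.0 and ahead of Mylk at 28.4. Per kilobase of the longest transcript it stood at rank 5, with 35.2 CPM per kb, behind Mylk with 40.9. The only neighbours in that order with overlapping intervals were Myh11 at 15.7 and Actg2 at 15.0, followed by Smtn at 8.27, Lmod1 at 3.28 and Synpo2 at 2.05.

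As shares of the summed level per length of the 10 genes, Tagln went from 23.2% to 33.7%, Acta2 from 27.8% to 32.04% and Cnn1 from 4.25% to 7.38%. The share of Des went from 15.4% to 9.40%, that of Mylk from 12.2% to 6.84% and that of Myh11 from 7.40% to 3.78%. These proportions lie within a library and do not depend on how the libraries are scaled against each other. They were not corrected for the length trend described below, which differs between the libraries. Without that trend the log2 ratio of Mylk went from -0.36 to -0.0032 and that of Myh11 from -0.49 to -0.22.

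**Figure D3:**
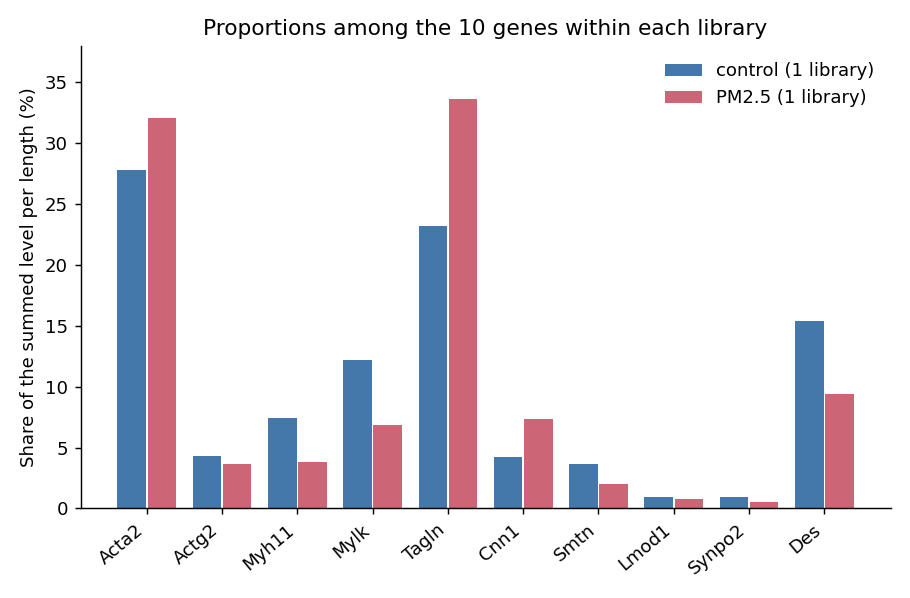
Share of the summed level per length of the 10 contractile genes (vertical axis, percent) in the control library and the PM2.5 library, 1 bar per gene and library. The shares of Acta2, Tagln and Cnn1 are higher in the PM2.5 library, and those of the other 7 genes are lower. The shares are not corrected for the trend of the ratios with gene length.

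The relation between members was also read directly from pairs of counts, with a normal counting interval on the log scale. The count of Cnn1 per count of Myh11 was 0.207 in the control and 0.703 in the PM2.5 library, 3.40 times as high (3.20 to 3.60), the widest gap of the 45 pairs. Tagln against Myh11 gave 2.84 times (2.73 to 2.96), and Acta2 against Myh11 2.25 times (2.17 to 2.34). In 40 of the 45 pairs the counting interval excluded an equal proportion, and in 28 the gap was at least 1.5-fold. The same shares over pairs of other measured genes were not computed, so these counts do not set the members apart. Nor were the gaps corrected for gene length. Actg2 over Mylk, for example, had a log2 gap of 0.59, but without the length trend described below the 2 genes had log2 ratios of 0.02 and -0.0032. The 5 pairs within counting error were Synpo2 with Myh11, with Mylk and with Smtn, Mylk with Smtn, and Lmod1 with Actg2. Before any correction for length, Myh11, Mylk, Smtn and Synpo2 kept close to the same proportions in both libraries. The widest gap among these 4 genes was 1.10 times, for Mylk over Myh11. Without the length trend they lay further apart, with log2 ratios of -0.0032 for Mylk and -0.0066 for Synpo2, against -0.22 for Myh11 and -0.25 for Smtn.

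Smooth muscle forms were set against their non-muscle or striated relatives, which are structurally alike. A chosen set of 18 pairs of a member and a measured relative of its own family was read, a choice made after values were seen. The set is not complete, as Myh11 was not paired with the cardiac myosin gene Myh6, for example. The member gained on its relative in 14 and lost in 2, with counting intervals excluding an equal proportion, and 2 pairs were within counting error. Several pairs share a gene, and the same shares over other pairs of genes were not computed. The pairs were not corrected for length either. Without the length trend, the log2 ratio of Myh9 went from -1.32 to -0.94 and that of Myh11 from -0.49 to -0.22. In the control library there were 10.5 counts of Actb, the cytoplasmic beta-actin, per count of Acta2, and in the PM2.5 library 4.64. Cnn2 counts per Cnn1 count went from 13.9 to 4.63, and Tagln2 counts per Tagln count from 4.38 to 1.87. Even Myh11, with a ratio below equality, gained 1.78 times (1.72 to 1.84) on the non-muscle myosin Myh9, whose 63475 and 27303 counts gave a 2.49-fold lower level. Des gained 1.62 times (1.58 to 1.68) on Vim, the vimentin of mesenchymal cells. The gain of Acta2 on the cardiac actin Actc1 was 1.21 times (1.16 to 1.26). Against the same Actc1, Actg2 lost, at 0.882 times (0.811 to 0.959), as did Synpo2 against Synpo, at 0.868 times (0.804 to 0.937). The pairs of Mylk with Mylk3 (1.05 times, 0.9005 to 1.23) and of Synpo2 with Synpo2l (0.930 times, 0.686 to 1.26) included an equal proportion. Of the 11 non-muscle relatives, 0 were called higher and 5 lower, with a median log2 ratio of -0.50, and at 2-fold 2 were lower. The 5 were Myh14, Myh9, Myh10, Smtnl2 and Vim. Of 9 genes listed as striated muscle relatives, 4 were measured and 1, Lmod2, was called lower (1.70-fold). With library totals 1 was called higher and 0 lower. The list also holds Tagln3, a transgelin gene not typical of striated muscle, which was not measured (9 and 34 counts).

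Gene length moved with these differences, and its part in them was not tested. Over all measured genes with a known length the log2 ratio was lower for longer genes (Spearman correlation -0.31, n = 14387). Among the 10 contractile genes this correlation was -0.76, a description over genes that share both libraries. Acta2 and Tagln belong to the length decile of 1637 to 2377 nt, whose median log2 ratio was 0.15 and in which 20.6% of genes were called higher. Their log2 ratios of 0.68 and 1.02 lay above its upper quartile of 0.48. Cnn1, at 1.27, lay above the upper quartile of its decile, 0.38, where the median was -0.01. The other 7 members lay between the quartiles of their deciles. The 2 longest members, Mylk and Synpo2, had log2 ratios of -0.36 and -0.39, beside a median of -0.39 for the decile of the longest genes. With the length trend taken out by a lowess curve, the log2 ratios were 1.28 for Cnn1, 0.90 for Tagln, 0.60 for Acta2, 0.35 for Lmod1 and 0.02 for Actg2. Mylk and Synpo2 then stood at -0.0032 and -0.0066, Des at -0.14, Myh11 at -0.22 and Smtn at -0.25. The same 3 genes were called higher, Acta2 only just beyond 1.5-fold. With the longest transcript as the length, an alternative chosen after seeing the data, Myh11 stood at -0.09, Mylk at 0.08 and Synpo2 at 0.08.

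**Figure D4:**
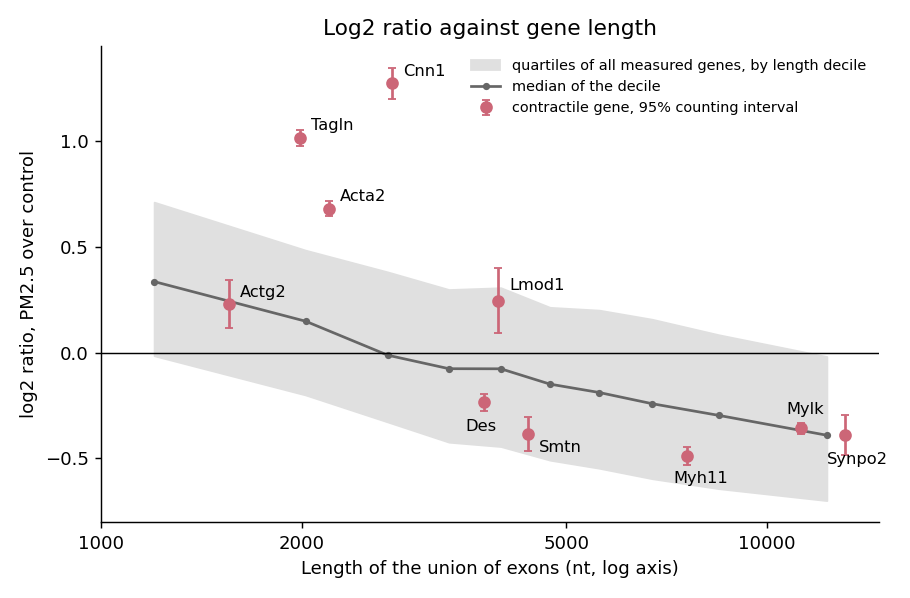
Log2 ratio of each contractile gene (vertical axis, points with 95% counting intervals) against the length of its union of exons (horizontal log axis, nt), over the median and quartiles of all measured genes in 10 length classes. Cnn1, Tagln and Acta2 lie above the band, and the other 7 genes lie between the quartiles of their class, Synpo2 to the right of the last class median.

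Partners of the contractile machinery were described by lists, whose counts are to be read against the 14.9% higher and 19.1% lower of all measured genes. Most lists are small, so that 1 gene moves their share widely. In the list of myosin light chains and phosphatase subunits, 0 of 10 genes were called in either direction, and the median log2 ratio was -0.15. The essential light chain Myl6 had 23558 and 37785 counts and a ratio of 1.495 (1.47 to 1.52), just short of the size that was called. Beside it stood the smooth muscle regulatory light chain Myl9 at 1.47 (1.42 to 1.52) and Ppp1r14a, the phosphatase inhibitor CPI-17, at 1.496 (1.43 to 1.56). The non-muscle light chains Myl12a and Myl12b had ratios of 0.757 and 0.825. With library totals or the upper quartile as the scaling, 3 of the 10 genes were called higher. Without the length trend, the log2 ratio of Myl9 went from 0.56 to 0.26 and that of Ppp1r14a from 0.58 to 0.33, while that of Myl6 went from 0.58 to 0.64. Among tropomyosins and actin anchors, 1 of 26 measured genes was called higher and 9 lower (34.6%), with a median of -0.40. The higher gene was Tpm2, a beta-tropomyosin of muscle, at 1.62-fold (1.54 to 1.71). The focal adhesion genes Vcl and Tln1, for vinculin and talin, were 2.46-fold (2.38 to 2.55) and 2.30-fold (2.26 to 2.34) lower, while filamin A, Flna, had a ratio of 0.809.

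Genes that signal to the contractile machinery were mostly lower after PM2.5. Of 21 measured channels, receptors and cyclic GMP genes, 15 were called lower (71.4%) and 3 higher (14.3%), with a median log2 ratio of -0.78. Prkg1, the cyclic GMP-dependent kinase that relaxes smooth muscle, had 948 and 325 counts and was 3.13-fold lower (2.76 to 3.56). Gucy1a1, a subunit of the nitric oxide receptor guanylate cyclase, had 21056 and 9718 counts and was 2.32-fold lower (2.27 to 2.38). The adrenoceptor gene Adra1a was 2.81-fold lower (2.59 to 3.05), and the cyclic GMP phosphodiesterase Pde5a 1.72-fold. Atp2a2, the calcium pump of the sarcoplasmic reticulum, was 1.66-fold lower. Receptors for constricting hormones were among the lower genes too, the endothelin receptor gene Ednra by 2.04-fold, and the angiotensin receptor gene Agtr1a with 1449 and 778 counts. The higher genes were the prostaglandin receptor gene Ptger3 at 2.13-fold, Kcnmb1, the smooth muscle subunit of a calcium-activated potassium channel, at 1.73-fold, and phospholamban, Pln, at 1.60-fold. These 3 rested on 95, 285 and 473 control counts. At 2-fold, 6 genes were called lower and 1 higher, and with library totals 9 were called lower.

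Of 10 genes for serum response factor, its cofactors and related factors, 1 was called higher and 3 lower (10% and 30%, beside 14.9% and 19.1% of all measured genes), with a median of -0.38. Myocd, the gene of myocardin, had 89 and 62 counts and a ratio of 0.649 (0.462 to 0.908). Mrtfb was 1.91-fold lower (ratio 0.523, 0.501 to 0.546), Elk1 1.55-fold lower, and Srf had a ratio of 0.694 on 4790 and 3566 counts (0.664 to 0.725). The higher gene was Fhl2, at 1.90-fold (1.56 to 2.32) on 154 and 314 counts. Of this list, Fhl2 alone was called in the same direction as Cnn1, Tagln and Acta2. With library totals or the upper quartile as the scaling, 1 gene of this list was called lower.

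Markers of other cells that express some of the members moved as follows, and their part in the results was not tested. Of 10 pericyte genes, 0 were called higher and 6 lower, with Pdgfrb 3.28-fold and Notch3 3.03-fold lower. The other 4 were not called: Kcnj8 had a ratio of 1.43 (1.26 to 1.62), Higd1b 0.842, Cox4i2 0.818 and Abcc9 0.741. The summed level of the pericyte genes went from 1351 to 597 CPM. Postn held the largest part of both sums, at 705 and 316 CPM, so the sum leans on Postn. Rgs5 and Trpc6 stand both in the pericyte list and in that of channels and receptors. The lists share other genes too: Chrm2 and Chrm3 (channels and airway), Vim (anchors and non-muscle relatives), Actc1 (striated relatives and cardiac) and Acta1 (striated relatives and skeletal). Of 9 fibroblast genes, 5 were called lower and 3 higher, and the sum went from 4754 to 1990 CPM. Col1a1 was 4.20-fold lower, while Dcn and Lum were 2.68-fold and 2.70-fold higher. Of 4 endothelial genes, 3 were called lower, and the sum went from 3753 to 1755 CPM. Cardiac muscle, which in mice also sheathes the pulmonary veins, had 5 of 10 genes higher and 1 lower, with sums of 418 and 439 CPM. Tnnt2, for cardiac troponin T of the thin filament, was 2.27-fold higher, and Myh6, a cardiac myosin heavy chain, 2.61-fold lower. Of 8 skeletal muscle genes, 4 were measured and 3 of them called higher, on summed levels over all 8 of 7.57 and 16.7 CPM. The skeletal myosin Myh4 and troponin Tnnc2 had 0 counts in both libraries, for which 3 counts, the limit a count of 0 allows, are 0.0517 and 0.0482 CPM. Of 4 genes for airway smooth muscle and its surroundings, Lgr6 was called higher (1.57-fold) and Hhip and Chrm2 lower (1.58-fold and 2.06-fold), on 54.7 and 34.1 CPM in sum. Of 5 mesothelial genes, 1, Wt1, was called higher (1.53-fold) and 0 lower, with sums of 378 and 412 CPM. Krt19, which was not called at a ratio of 1.30, held the largest part of both sums, at 172 and 224 CPM. Msln had a ratio of 0.754, so the direction of the sum leans on Krt19.

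**Figure D5:**
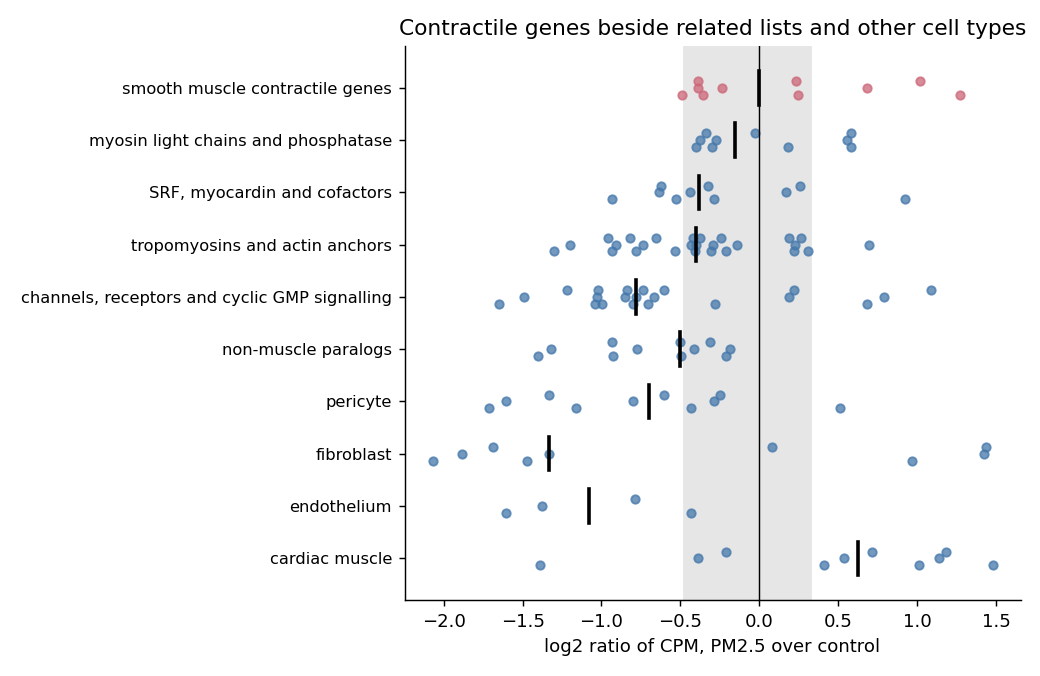
Log2 ratio (horizontal axis, PM2.5 over control) of every measured gene in the contractile group and 9 related lists, 1 point per gene, with a black bar at each median and a grey band for the quartiles of all measured genes. The contractile genes centre on -0.0023 with 3 points on the right, and the channel and receptor list centres on -0.78.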

How the data were processed

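RNA was measured in 1 control and 1 PM2.5 lung library (KAPA stranded kit, paired reads of 125 bp, per the labels' protocols). The authors deposited raw counts of reads for Ensembl genes. TopHat2 2.1.1, HTSeq 0.6.0 and mm10 are named in the submitters' processing notes. The annotation release and the strand setting were not stated. Symbols and lengths came from GENCODE M21 (35533 of 37315 identifiers matched), and promoters from RefSeq.

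Sizes were scaled with edgeR 4.0.16 (TMM). DESeq2 1.42.0, Python 3.11.15, scipy 1.17.1, statsmodels 0.14.6 (lowess, fraction 0.3) and biopython 1.88 were also used. Ratio intervals (95%) cover counting error only. Ratio code was tested on simulated counts. Alternatives were other scalings, filters, size rules, thinning and length corrections.

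The members and lists were chosen with earlier results of these data known. Named genes came from the 3 most abundant of each list and up to 2 called per direction. Others, such as Myl9, Ppp1r14a, Srf, Myocd, Ednra and Agtr1a, were chosen after their values were seen, as were the lung epithelial list, the pairs of relatives and the removal of Lmod2 from the non-muscle list. Results of 1 signalling list are not reported here.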

Additional observations from a re-analysis of the deposited data

How the results depend on the processing

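Cnn1, Tagln and Acta2 were counted as higher, and 0 members as lower, under the DESeq2, library total, upper quartile and trimmed TMM scalings, thinning, filters of 1 count or 10 CPM, the stricter interval rule and both length corrections. Without the trend with exon length, Acta2 lay only just beyond 1.5-fold. At 2-fold, 2 members were higher. The median log2 ratio of the members moved from -0.0023 to 0.2278 with library totals, 0.1355 with the upper quartile and 0.0810 with the length trend of the longest transcript (chosen after seeing the data), and the summed log2 ratio from 0.1367 to 0.3668, 0.2745 and, without Mylk, 0.3356. Library totals and the upper quartile shift all log2 ratios by 0.23 and 0.14. Of all measured genes, 23.8% were then higher and 9.90% lower with library totals, 8.31% higher at 10 CPM, and 12.7% lower without the length trend. No called member changed direction. No paired analysis was possible because each group has 1 library. Among the related lists, at 2-fold, library totals and without the length trend in turn, the lower genes went from 15 to 6, 9 and 11 for channels and receptors and from 3 to 0, 1 and 1 for serum response factor. For tropomyosins and anchors they went from 9 to 2 at 2-fold and 5 with the longest transcript's trend. Higher channel genes went from 3 to 1 at 2-fold, the stricter interval or 10 CPM, and cardiac genes from 5 to 3 at 10 CPM. Light chain genes called higher went from 0 to between 1 and 3 with library totals, the upper quartile, thinning and the length corrections. Counts of the airway, mesothelial, pericyte, striated and lung epithelial lists that moved by over 1.5 times moved by 1 gene. At 10 CPM, the skeletal muscle list had no gene left. Depth limits genes such as Myocd, and the missing replicates limit every value.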
